A study of Homo sapiens with 15 samples.

Results

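Constitutive narrow sites are the open-chromatin sites that every library of the study detected as a short peak. They were chosen by presence and peak length alone: all peaks on chromosomes 1 to 22 in the 15 lists were joined wherever they shared 1 bp or more, and a merged region was kept when it held a peak in all 15 lists and no single peak of 1000 bp or more. This gave 33394 sites of 118109 merged regions. The other 4574 regions with a peak in all 15 lists held a peak of 1000 bp or more in at least 1 list and are called broad sites here. Each list came from nuclease-digested nuclei of K562, a human erythroleukemia cell line, after stable lentiviral expression of dCas9, which finds its DNA site by a guide RNA (gRNA) and does not cut it. There were 3 libraries in each of 5 groups: dCas9 fused to the KRAB repressor domain (dCas9-KRAB) with gRNA Cr4, dCas9-KRAB with gRNA Cr10, dCas9 without KRAB with Cr4, dCas9 without KRAB with Cr10, and dCas9-KRAB without a gRNA. Cr4 and Cr10 are both directed to HS2, an enhancer of the beta-globin locus, and HS2 is itself 1 of the 33394 sites. Below, KRAB Cr4 and KRAB Cr10 name the groups in which dCas9-KRAB had that gRNA (together the guided KRAB libraries), dCas9 Cr4 and dCas9 Cr10 those without KRAB, and unguided KRAB the last group. All groups were transduced with 4 µg/mL polybrene, and selection with 1 µg/mL puromycin began about 96 h later, so no group was free of virus. No group had dCas9 without KRAB and without a gRNA. The design text speaks of transduction in triplicate and says no more of how the replicates were grown, so the p-values measure the spread between these libraries.

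A DNase-sensitive site is a stretch of DNA that regulatory proteins keep free of a nucleosome, and promoters, enhancers and insulators all appear as such sites. A site the width of about one nucleosome gap is typical of a single cluster of transcription factors, whereas broad accessible stretches are known mostly from active promoters. The beta-globin locus is the classical example of the narrow kind. Its locus control region lies upstream of the embryonic gene HBE1 and consists of the hypersensitive sites HS1 to HS5. HS2 is a strong erythroid enhancer, HS3 opens chromatin and also enhances, HS4 contributes to high expression, and HS5 has been described as an insulator. The KRAB domain recruits co-repressors and histone methyltransferases, and its fusion to dCas9 is used to silence the element to which a gRNA leads it.

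At the globin locus, HS1 to HS5, the promoters of the fetal genes HBG1 and HBG2, the promoter of the minor adult gene HBD and 3′ HS1, a site downstream of the cluster, were all constitutive narrow sites. The names rest on recalled hg19 positions that were not checked against an annotation. Of these genes HBD had a promoter in the RefSeq table (build GRCh38.p14, while the peaks are on hg19, so the sequence is not placed within the peak). It is shown because its peak was present in all 15 lists and varied least of the named globin sites. The stretch runs from 250 bases before to 50 bases after the gene's start, and the capitals mark in order a match of TGANTCA, then one of CCAAT, and last one of AGATAA as it reads on the other strand.
HBD promoter, chr11:5234434-5234733, minus strand: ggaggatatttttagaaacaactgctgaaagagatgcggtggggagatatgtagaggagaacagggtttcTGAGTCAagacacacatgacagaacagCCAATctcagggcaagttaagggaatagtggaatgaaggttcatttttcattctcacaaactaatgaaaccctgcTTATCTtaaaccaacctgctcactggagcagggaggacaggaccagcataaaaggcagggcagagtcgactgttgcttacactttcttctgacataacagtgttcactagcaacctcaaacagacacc
AGATAA, a motif of GATA factors, occurred on either strand in 10.3% of 35116 promoters of this length. The share was 34.6% for CCAAT and 7.71% for TGANTCA, the motif of NF-E2 and AP-1 proteins. The HBD promoter held no match of GGGTGTGG, a motif of KLF factors found in 3.28% of promoters, of CACGTG (7.26%) or of CCAATCA (6.95%), which contains CCAAT. All were searched on both strands, the 3 matches shown do not overlap, and a match is a description of letters, not a bound site.

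The values came from the deposited peaks. The authors' fold and p-value for a peak together fix 2 quantities, the pileup, which is the whole number of fragments stacked at the peak's summit, and the local background, which is the number of fragments expected there. The level of a site is log2(pileup + 1) less the library's median over the 37968 regions that all 15 lists share, so a level of 0 is that median. Library depth differed: the median pileup of the narrow sites ran from 41 fragments in replicate 1 of dCas9 Cr10 to 107 in replicate 3 of the same group, and the lists held 53147 to 94777 peaks. The total number of fragments is not given in the sources used here. The narrow sites took 34331 to 34607 peaks of a list, which was 37.2% to 66.4% of its peaks on these chromosomes.

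The narrow sites had a median longest peak of 487 bp, with quartiles of 368 and 659 bp and every length under the limit of 1000 bp. A total of 9584 sites, 28.7%, had a longest peak of 300 to 400 bp. The summit pileup was higher in longer sites, with a median of 43 fragments at 200 to 300 bp, 59 at 400 to 500 bp, 101 at 700 to 800 bp and 127 at 900 to 1000 bp. The limit of 1000 bp did not mark a step in height. Sites up to 50 bp under it had a median pileup of 130, and broad sites up to 50 bp over it also had 130, with median levels of 0.83 and 0.84. Because length chose the sites, these values are descriptions.

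**Figure D1:**
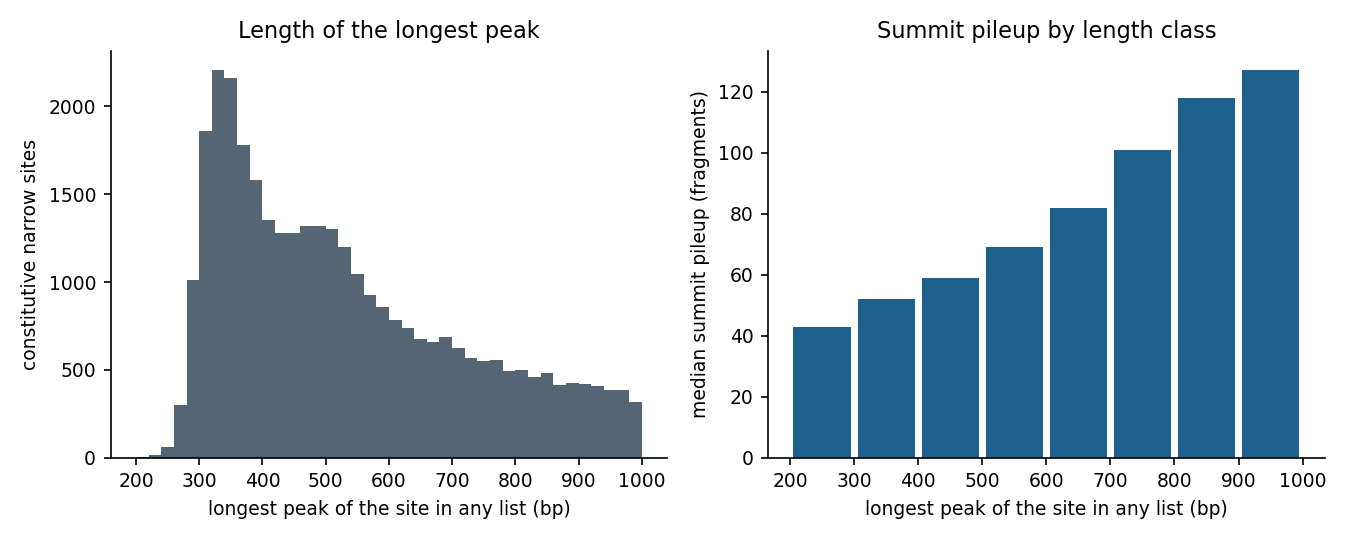
Constitutive narrow sites by the length of their longest peak in any list (bp). Left, the number of sites in bins of 20 bp, highest between 300 and 400 bp; right, the median summit pileup in fragments by length class, from 43 in the shortest to 127 in the longest.

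The summits of the 15 lists fell within 50 bp of each other at 14834 sites (44.4%) and within 100 bp at 28741 sites (86.1%), with a median range of 54 bp. At 1642 sites (4.92%) they lay more than 200 bp apart, against 18.0% of broad sites. A single peak in every list was found at 29234 narrow sites (87.5%), and the others were split into several peaks in at least 1 list. At 27345 sites (81.9%) the −log10 q-value was at least 10 in all 15 lists, and at 220 sites (0.659%) it was under 5 in some list. Being detected everywhere did not mean being strong everywhere. By the rank of its fold within a list, 15314 sites (45.9%) were above the median of some lists and below that of others, while 2359 sites (7.06%) were in the top 10% of every list. This rank moves with the length of the list. The median rank percentile of the narrow sites was 59.1 in the shortest list, of 53147 peaks, and 77.2 in the longest, of 94777. How much of the crossing comes from list length was not tested.

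In all 15 libraries the narrow sites had a lower summit and a lower background than the broad ones. The median pileup was 41 to 107 fragments in narrow sites and 90 to 201 in broad sites, and the median background was 4.32 to 12.2 and 7 to 19.4 fragments. In log2, narrow minus broad sites averaged −1.02 ± 0.08 for the median pileup, or 0.495 times, and −0.62 ± 0.04 for the median background, or 0.652 times (SD, n = 15 libraries). Peak length and height went together in these lists, so a lower summit in sites chosen for short peaks is partly fixed by the choice, and the difference is given as a description.

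**Figure D2:**
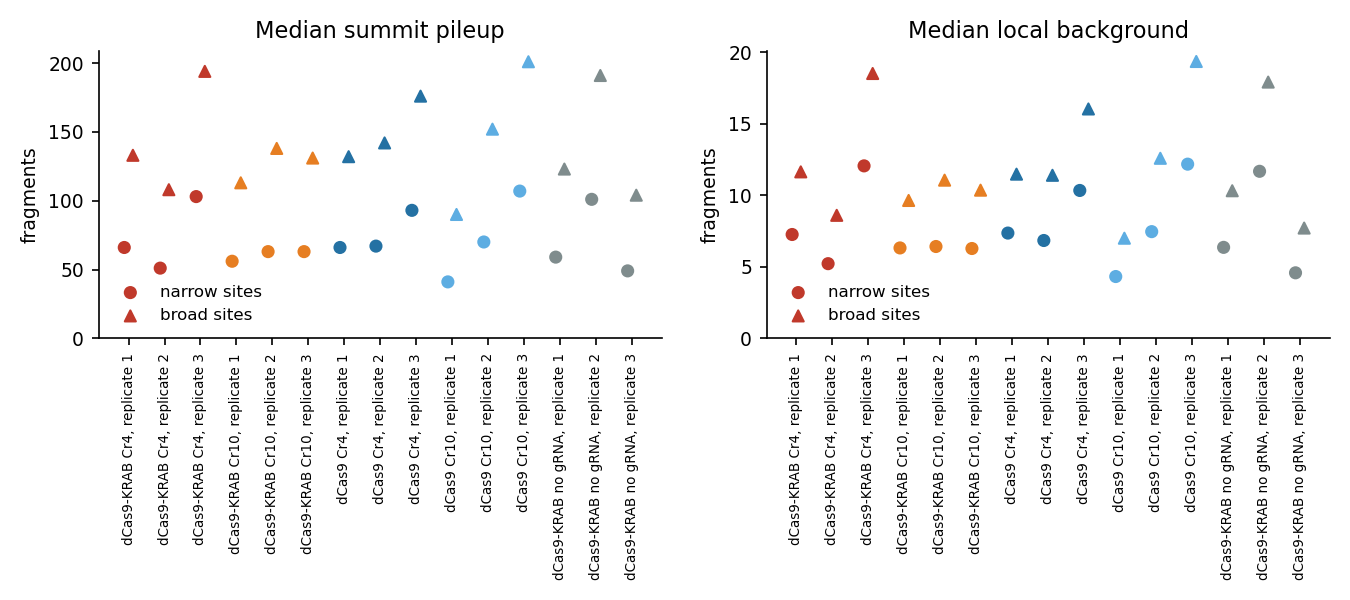
Median summit pileup (left) and median local background (right), both in fragments, of narrow sites (circles) and broad sites (triangles) in each of the 15 libraries, coloured by group. In every library the circle lies below the triangle, with pileups of 41 to 107 against 90 to 201.

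Whether the difference between narrow and broad sites changed with the treatment was tested over libraries, and no comparison passed. It averaged −0.99 ± 0.08 in KRAB Cr4, −1.05 ± 0.06 in KRAB Cr10, −0.99 ± 0.08 in dCas9 Cr4, −1.04 ± 0.12 in dCas9 Cr10 and −1.01 ± 0.09 in unguided KRAB (log2, SD, n = 3 each). The 6 guided KRAB libraries differed from the other 9 by −0.01 (exact permutation p = 0.838), and the 4 comparisons of 3 against 3 had exact permutation p-values of 0.6 to 1, where 0.1 is the smallest possible. The median length of the narrow peaks averaged 353 ± 28.2 bp in guided KRAB libraries and 362 ± 36.6 bp in the other libraries (SD, n = 6 and 9; exact permutation p = 0.623). Length chose these sites and was limited in every list, so this p-value is a description. The difference of −9.11 bp became −20.2 bp without replicate 3 of KRAB Cr4 and −2.38 bp without replicate 3 of dCas9 Cr10, the ends of the range over all 15 libraries left out in turn.

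Both measures moved with the stand-in for library depth, the log2 median pileup of the regions in all lists. Narrow sites were 33394 of these 37968 regions, so the difference between narrow and broad sites shares a term with the stand-in. Length, the other measure, was used to choose the sites. The p-values of both relations are therefore descriptions of these libraries, and the part of depth itself cannot be read from them. Over the 15 libraries the median length of narrow peaks ran from 312 to 416 bp and followed the log2 median pileup of the regions in all lists (Pearson r = 0.988, permutation p = 1e-05; Spearman rho = 0.987, permutation p = 1e-05, the smallest that 100000 draws can give; adjusted over both relations, 2e-05). Without the 2 libraries farthest from the median depth r was 0.991, and after removal of the group means it was 0.991. The difference between narrow and broad sites was smaller where this median pileup was higher (r = 0.818, permutation p = 0.00028; rho = 0.654, permutation p = 0.00952, the same after adjustment). Without the 2 libraries farthest from the median depth this r was 0.748, and after removal of the group means it was 0.823.

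In proportion, the strongest sites gained fewer fragments with depth than the rest. The median pileup of the deepest library, replicate 3 of dCas9 Cr10, was 2.61 times that of the shallowest, replicate 1 of the same group. Among 10 equal classes by mean level, the median ratio was 2.48 in the lowest, 2.64 in class 5 and 2.07 in the highest. Among the 100 highest sites it was 1.68, with median pileups of 296 in the deepest and 174 in the shallowest library. At the highest site, on chromosome 22, the level was 1.61 in the deepest library and 2.74 in the shallowest.

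Libraries of 1 group were no closer to each other than to libraries of other groups. Over the 33394 sites, the correlation of levels had a median of 0.910 over the 15 pairs of libraries of 1 group and 0.919 over the 90 pairs of different groups. The closest library to each of the 15 was in another group in all 15 cases, with the highest r, 0.985, between replicate 2 of dCas9 Cr4 and replicate 2 of unguided KRAB. The pileups of 21 of the 90 pairs between groups, and of 0 of the 15 pairs within groups, differed by less than independent counting of fragments would give (mean squared deviation over that of counting, 0.542 at the lowest). The first axis of a singular value decomposition of the sites' levels held 29.8% of their variance over libraries. It placed 5 libraries above 0, at 0.10 to 0.20 in log2 units, and 10 below 0. Those above were replicate 1 of KRAB Cr4, of KRAB Cr10, of dCas9 Cr4 and of unguided KRAB, and replicate 2 of dCas9 Cr10. Each group thus had 1 library above 0 and 2 below. What the axis stands for was not tested. Since it was computed from these same levels, it is a description of the libraries and not a recorded batch.

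**Figure D3:**
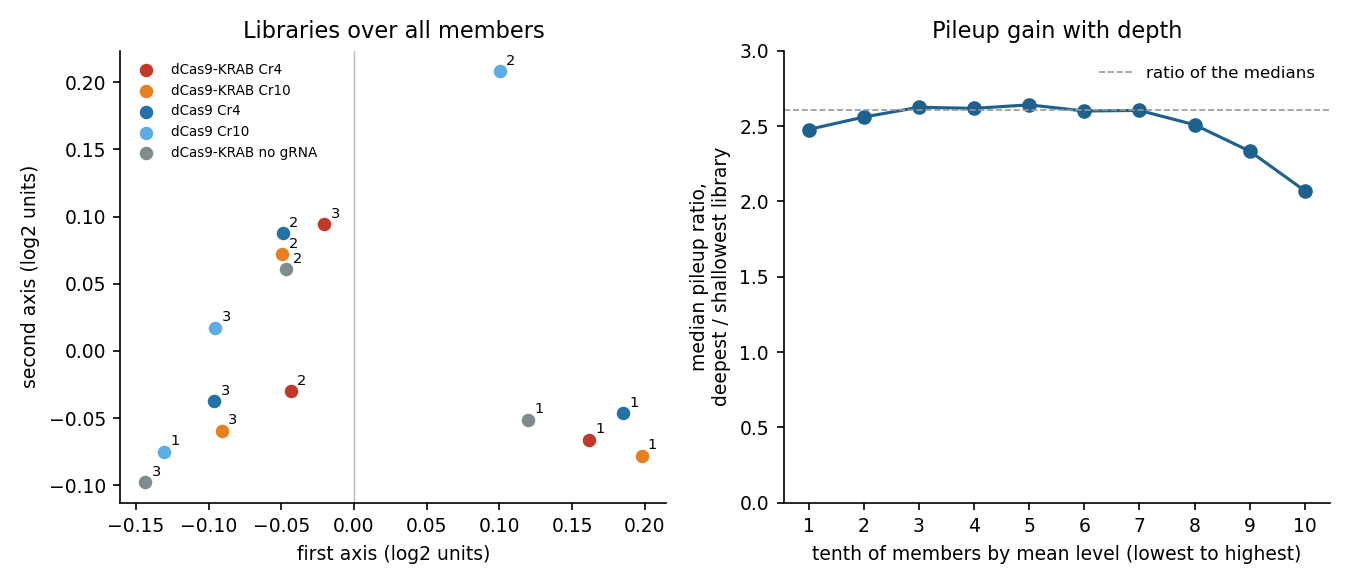
Left, the 15 libraries on the first 2 axes of the sites' levels (log2 units), coloured by group and marked with the replicate number, with 1 library of each group right of 0. Right, the median ratio of pileups between the deepest and the shallowest library for 10 classes of sites by mean level, 2.48 in the lowest and 2.07 in the highest; the dashed line is the ratio of the library medians, 2.61.

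The first question for these sites was whether the targeted one changed. HS2 (hg19, chromosome 11, 5301766 to 5302230, longest peak 457 bp) had a lower level, relative to the library, where dCas9-KRAB was led to it. Its pileup was 97, 57 and 113 fragments with KRAB Cr4, and 66, 44 and 53 with KRAB Cr10. It was 123, 95 and 130 with dCas9 Cr4, 81, 99 and 160 with dCas9 Cr10, and 135, 150 and 110 with unguided KRAB. Set against each library's own median, the levels were 0.44, 0.03 and 0.03 with KRAB Cr4, and 0.11, −0.64 and −0.37 with KRAB Cr10. They were 0.78, 0.40 and 0.38 with dCas9 Cr4, 0.87, 0.36 and 0.46 with dCas9 Cr10, and 1.07, 0.46 and 1.04 in unguided KRAB. Of the 6 guided KRAB libraries, 5 lay below all 9 others, and replicate 1 with Cr4 lay among the lowest of the others.

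Pooled over both gRNAs, the HS2 level averaged −0.07 ± 0.38 in guided KRAB libraries and 0.64 ± 0.29 in the other libraries (SD, n = 6 and 9). The difference of −0.71 in log2 (limma SE 0.12), or 0.610 times, passed the exact permutation test over libraries (two-sided p = 0.000799, 5005 splits). Among the 10 libraries below 0 on the first axis it was −0.84, with all 4 guided KRAB libraries below all 6 others (exact permutation p = 0.00476, the smallest 210 splits can give). Among the 5 above 0 it was −0.46 (2 against 3 libraries, exact permutation p = 0.3, where 0.1 is the smallest possible). The split by this axis was chosen after seeing the data, from levels that include HS2. Its p-values, here and at the sites below, are descriptions.

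**Figure D4:**
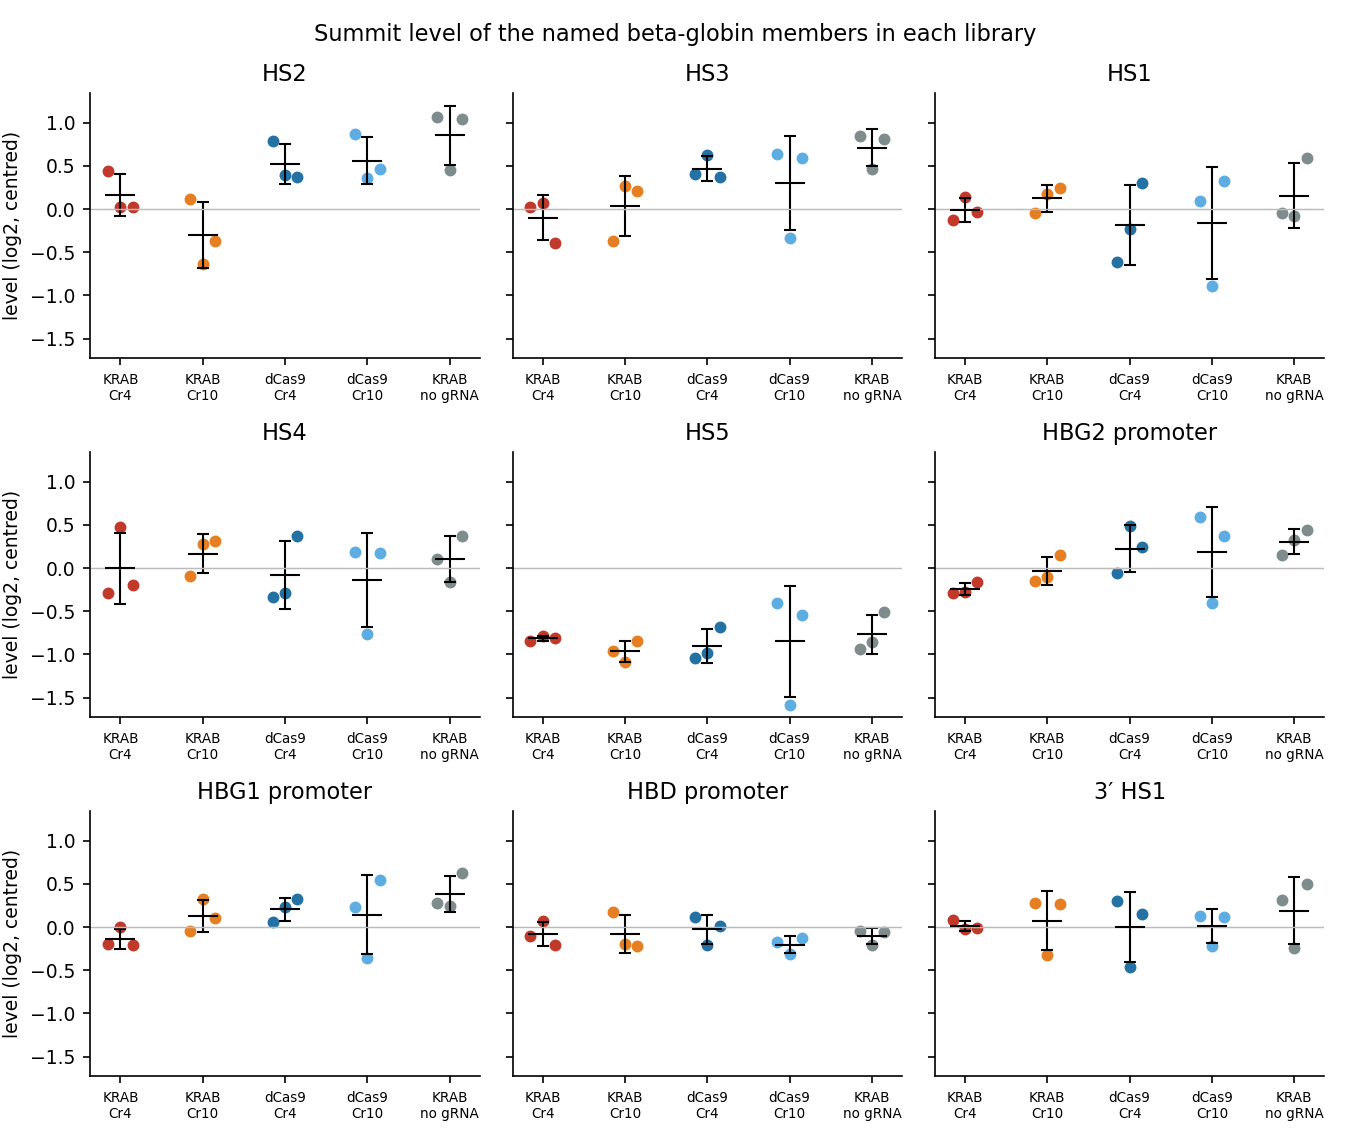
Level (log2 pileup less the library's median over regions in all lists) of 9 beta-globin sites in each of the 15 libraries by group; points are libraries and bars the mean ± SD (n = 3). At HS2 the KRAB Cr10 libraries lie at −0.64 to 0.11 and the unguided KRAB libraries at 0.46 to 1.07.

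The HS2 difference was larger with Cr10 than with Cr4, but the gap between the gRNAs did not pass its test. With Cr10, dCas9-KRAB stood at −0.30 ± 0.38 (SD, n = 3). Its difference was −1.15 from unguided KRAB, or 0.449 times (SE 0.19, limma adjusted p = 0.0787), and −0.86 from dCas9 Cr10 (SE 0.19, limma adjusted p = 1.00). In both comparisons the groups did not overlap, and each exact permutation p was 0.1, the smallest that 3 against 3 allows. With Cr4, dCas9-KRAB stood at 0.17 ± 0.24 (SD, n = 3), with a difference of −0.69 from unguided KRAB (exact permutation p = 0.1) and of −0.35 from dCas9 Cr4 (exact permutation p = 0.3). Leaving out each library moved the −0.35 between −0.49 and −0.22. The KRAB effect with Cr10 less that with Cr4 was −0.51 (exact permutation of the gRNA labels within dCas9-KRAB and within dCas9, p = 0.21, 400 permutations; limma p = 0.0692, adjusted p = 1.00).

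The background around the HS2 summit was lower in the same libraries. Relative to each library's median background, its log2 value differed by −0.37 between the 6 guided KRAB libraries and the other 9 (exact permutation p = 0.0258). The deposited fold divides the summit by this background. By the rank percentile of this fold, HS2 averaged 69.0 in KRAB Cr4 and 39.4 in KRAB Cr10, against 70.3 in dCas9 Cr4, 76.2 in dCas9 Cr10 and 74.9 in unguided KRAB. KRAB Cr10 thus differed by −36.8 points from dCas9 Cr10 and by −35.4 from unguided KRAB (exact permutation p = 0.1 in each). KRAB Cr4 differed by −1.26 points from dCas9 Cr4 (exact permutation p = 0.9) and by −5.81 from unguided KRAB (exact permutation p = 0.7). In log2 of the fold itself the Cr4 differences were −0.02 and −0.17 (exact permutation p = 1 and 0.4). The lower summit with Cr4 was thus hardly seen once divided by its background. That background is local to the summit and may hold fragments of HS2 itself and of its neighbours. Summit and background may therefore not be independent, and what they share was not tested. The pooled difference was −19.6 points (exact permutation p = 0.0132) and −0.37 in log2 fold (exact permutation p = 0.0216). The peak itself was 350 to 424 bp long in guided KRAB libraries and 397 to 457 bp in the others.

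Set against all narrow sites, HS2 was the extreme one when both gRNAs were pooled. In the pooled comparison no other of the 33394 sites had a lower limma p or a larger difference, and the differences of 90% of the sites lay between −0.16 and 0.14. Only 3 sites differed by more than 0.5 in log2: HS2, HS3 and a site on chromosome 16 (10436895 to 10437454) that differed by 0.51 (limma adjusted p = 1.00). HS2 also had the lowest p of all sites where KRAB Cr10 was set against unguided KRAB or dCas9 Cr10, and the second lowest in KRAB Cr4 against unguided KRAB. Over all 37968 regions its adjusted p was 0.157 in the pooled comparison, so limma did not call it. On the deposited fold, HS2 had the fourth lowest pooled p (adjusted p = 1.00). In KRAB Cr4 its rank on the fold was 8659 against unguided KRAB and 32049 against dCas9 Cr4.

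**Figure D5:**
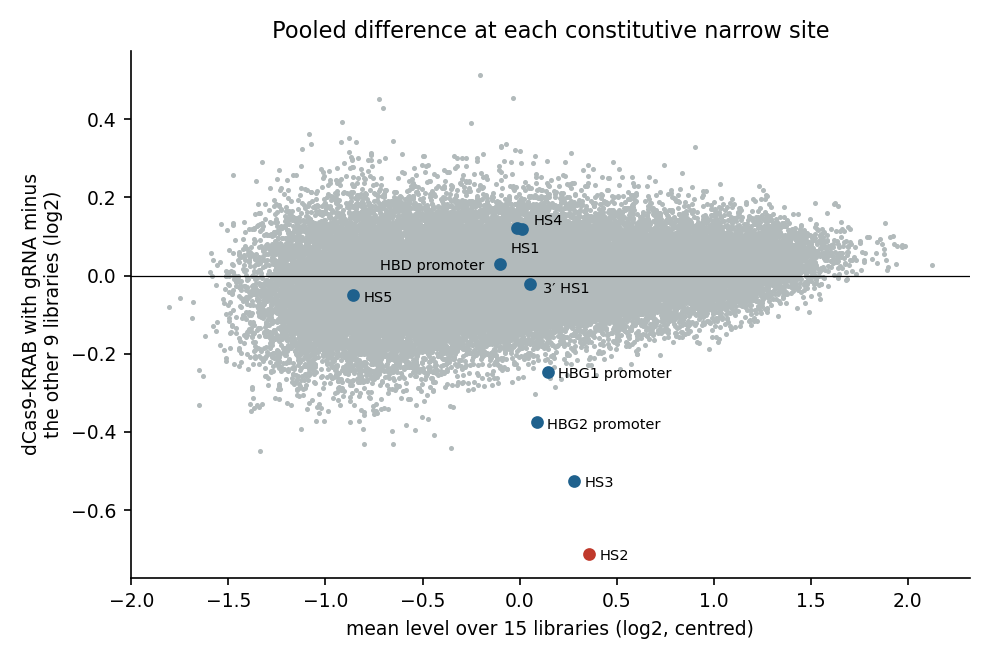
Difference in level between the 6 guided KRAB libraries and the other 9 (log2, y axis) over the mean level in 15 libraries (x axis) for each constitutive narrow site (grey), with the named globin sites in blue and HS2 in red. HS2 at −0.71 and HS3 at −0.53 lie below every other site.

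HS3 (5305792 to 5306310) had the second lowest p of the pooled comparison. The exact tests of the 9 named globin sites are not adjusted for their number. Its pileup was 72, 59 and 84 fragments with KRAB Cr4, 47, 83 and 80 with KRAB Cr10, 94, 112 and 130 with dCas9 Cr4, 69, 61 and 175 with dCas9 Cr10, and 116, 151 and 94 in unguided KRAB. The levels averaged −0.03 ± 0.29 in guided KRAB libraries and 0.49 ± 0.35 in the others (SD, n = 6 and 9), a difference of −0.53 (0.695 times; exact permutation p = 0.0108; limma adjusted p = 1.00). The highest of the 6 guided KRAB libraries was at 0.26, and replicate 2 of dCas9 Cr10, at −0.33, was the only other library below that. Among the libraries below 0 on the first axis the groups did not overlap (−0.55, exact permutation p = 0.00476), and among those above 0 the difference was −0.48 (exact permutation p = 0.4). With Cr4, HS3 had the lowest limma p of all narrow sites both against unguided KRAB (−0.81) and against dCas9 (−0.57), with adjusted p-values of 1.00.

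The promoter site of the fetal gene HBG2 was lower too, while that of HBG1 did not pass the pooled test. The HBG2 site (5275738 to 5276312) had pileups of 58, 46 and 99 with KRAB Cr4, 55, 64 and 77 with KRAB Cr10, 68, 101 and 119 with dCas9 Cr4, 67, 58 and 150 with dCas9 Cr10, and 71, 137 and 72 in unguided KRAB. Its level averaged −0.14 ± 0.16 in guided KRAB libraries and 0.24 ± 0.31 in the others (SD, n = 6 and 9), a difference of −0.38 (0.771 times; exact permutation p = 0.021). This was the ninth lowest p among the narrow sites (limma adjusted p = 1.00). Its level was −0.24 ± 0.07 with KRAB Cr4, against 0.30 ± 0.15 in unguided KRAB and 0.22 ± 0.27 with dCas9 Cr4 (SD, n = 3 each), and neither pair of groups overlapped (exact permutation p = 0.1 in each). Among the 5 libraries above 0 on the first axis the HBG2 difference was −0.11 (exact permutation p = 0.7). HBG1 (5270839 to 5271354) differed by −0.25 in the pooled comparison (exact permutation p = 0.0891). With Cr4 it did as HBG2 did: its level was −0.13 ± 0.12 in KRAB Cr4, against 0.38 ± 0.21 in unguided KRAB and 0.20 ± 0.13 in dCas9 Cr4 (SD, n = 3 each), and neither pair overlapped (exact permutation p = 0.1 in each). HBG1 and HBG2 are near-identical copies, so fragments may have been assigned to either. In bulk libraries, fewer cells with an open site and fewer cuts per cell cannot be told apart.

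None of the other 5 named sites of the locus passed the exact test. In the pooled comparison HS1 (5296783 to 5297378) differed by 0.12, HS4 (5309327 to 5309737) by 0.12, HS5 (5312466 to 5312801) by −0.05, the HBD promoter (5255349 to 5256040) by 0.03 and 3′ HS1 (5226033 to 5226442) by −0.02, with exact permutation p-values of 0.538 to 0.880. Of these 5, HS1 alone had a background difference that passed, −0.31 in log2 in guided KRAB libraries relative to the others (exact permutation p = 0.0296). HBD was the steadiest of the named sites, with 39 to 106 fragments and a within-group SD of 0.15, where counting alone gives 0.17. HS5 was the weakest, at 25 to 79 fragments and a mean level of −0.86. Replicate 2 of dCas9 Cr10 was the lowest library at HS1, HS4, HS5 and the HBD and both HBG promoters, with levels of −0.89, −0.76 and −1.58 at the 3 hypersensitive sites, while its HS2 level was 0.36. The embryonic gene HBE1 had no constitutive site at its promoter window, where 4 lists held a peak (5291041 to 5291397), none of them from guided KRAB. They were replicates 2 and 3 of dCas9 Cr4, replicate 3 of dCas9 Cr10 and replicate 2 of unguided KRAB, with 21, 25, 52 and 35 fragments. The median pileups of narrow sites in these libraries were 67, 93, 107 and 101, against a median of 66 over libraries. Among libraries without this peak, the highest medians were 103 in replicate 3 of KRAB Cr4 and 70 in replicate 2 of dCas9 Cr10. The rest of the 9 other libraries had no peak either, and the part of depth or treatment was not tested.

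Beyond the globin locus, the comparisons asked whether guided KRAB changed narrow sites elsewhere. Limma fitted the 37968 shared regions and called 0 narrow sites at an adjusted p under 0.05 in each of the 5 comparisons, against a background of 0% of all regions. At an unadjusted p under 0.05 it gave 262 narrow sites in KRAB Cr4 against unguided KRAB (0.785% of the sites, against 0.719% of all regions), 327 in KRAB Cr10 against unguided KRAB (0.979%, against 0.877%), 73 in KRAB Cr4 against dCas9 Cr4 (0.219%, against 0.216%), 470 in KRAB Cr10 against dCas9 Cr10 (1.41%, against 1.3%) and 293 in the pooled comparison (0.877%, against 0.798%). The shares in narrow sites were near the background, of which they form most. All were well below a share of 0.05, which p-values matched to the spread would give on average with no change. The limma p-values may thus have been too high, and 0 calls do not show that no site changed. Why the shares were so low was not tested. In the pooled comparison 134 of the 293 were higher and 159 lower in guided KRAB libraries, and the median difference over all narrow sites was 0.00. The third lowest p of the pooled comparison was at a site on chromosome 1 (15666788 to 15667246), whose level was 0.24 ± 0.27 in guided KRAB libraries and −0.22 ± 0.22 in the others (SD, n = 6 and 9; difference 0.45, limma adjusted p = 1.00).

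HS2 was called under some settings and not under most. In the fit of all 15 libraries its adjusted p was 0.157 pooled, 0.0787 in KRAB Cr10 against unguided KRAB and 0.9998 against dCas9 Cr10. Of 25 alternative settings that did not use the first axis, 3, 7 and 1 called HS2 in these comparisons. In both comparisons of KRAB Cr4, 0 did. The pooled adjusted p was 0.9997 without replicate 2 of KRAB Cr10, 0.99995 without its replicate 3 and 0.9999 without the mean-variance trend. In KRAB Cr10 against unguided KRAB, HS2 was called when only those 6 libraries were fitted (adjusted p = 0.0177). In the pooled comparison it was called without replicate 1 of KRAB Cr4 (adjusted p = 0.0252) or of KRAB Cr10 (adjusted p = 0.0266). With the side of the axis as a term, an alternative chosen after seeing the data, limma called 1 narrow site, HS2, in the pooled comparison (−0.71, adjusted p = 0.000268), in KRAB Cr10 against unguided KRAB (adjusted p = 9.35e-05) and in KRAB Cr10 against dCas9 Cr10 (adjusted p = 0.0438). The 10 libraries below 0 on the axis were likewise set apart after seeing the data. There the pooled comparison gave 3 narrow sites over the genome: HS2 (−0.84), HS3 (−0.55) and the HBG2 promoter (−0.51). All were at the beta-globin locus and all were lower in guided KRAB libraries. On the other side of the axis the differences were −0.46, −0.48 and −0.11, and none passed the exact test. With Cr4 both settings called 0 narrow sites against either control.

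Most narrow sites varied little within groups. The SD of a site's level within groups had a median of 0.207, where independent counting of fragments gives 0.178, and it exceeded 2 times its counting value at 1879 sites (5.63%). In broad sites the medians were 0.172 and 0.124. The steadiest site lay on chromosome 4 (159131233 to 159131862), with 60 to 148 fragments and levels between 0.35 and 0.52, an SD of 0.06 over the 15 libraries. The most variable was on chromosome 15 (35458906 to 35459311), with 20 to 122 fragments and an SD of 0.75. Its levels were −1.22, 0.00 and −0.32 with KRAB Cr4, −1.20, −0.57 and 0.38 with KRAB Cr10, −1.78, −0.80 and 0.19 with dCas9 Cr4, 0.29, −1.53 and 0.07 with dCas9 Cr10, and −1.32, −0.72 and 0.45 in unguided KRAB. The lowest library of each group there was the one above 0 on the first axis, and every group held both low and high libraries. The next most variable sites, on chromosomes 10, 6, 4 and 7, had SDs of 0.62 to 0.67.

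Several of the highest narrow sites lay over a high background, against a median of 6.9 fragments over all narrow sites. The site with the highest mean level, on chromosome 22 (23487118 to 23487841), held 282 to 371 fragments over a median background of 44.3 fragments, and by fold its median rank percentile was 54.8. Of the 5 highest sites 4 were on chromosome 22. Of the top 100, 20 were on chromosome 22, 20 on chromosome 1 and 16 on chromosome 7. These chromosomes held 2.79%, 11.6% and 5.78% of all narrow sites. In 1704 bins of 1 Mb with at least 5 narrow sites, the background was taken relative to the library's median over the narrow sites. Its median was highest on chromosome 2 at 133 to 134 Mb (7.23 times, 15 sites). Next came chromosome 22 at 23 to 24 Mb (4.47 times, 48 sites) and chromosome 9 at 133 to 134 Mb (3.49 times, 33 sites). K562 is known for a BCR-ABL1 fusion of chromosomes 22 and 9 that is present in many copies. Copy number was not measured here, and its part in these values was not tested. At the other end, the 5 sites with the lowest mean level had median pileups of 19 to 23 fragments.

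The sites were spread unevenly over the genome. Chromosome 1 held the most, 3884, and chromosome 21 the fewest, 374. Chromosome 19, which is dense in genes, held 2330. Its median pileup was 0.36 above the library's median over the narrow sites in log2 (0.19 to 0.46 over the 15 libraries). The densest 1 Mb bin was on chromosome 19 at 49 to 50 Mb, with 106 sites. The median distance from a narrow site to the nearest other one was 11807 bp, and 44.5% had a neighbour within 10 kb. Neighbouring sites were more than 1 Mb apart in 395 gaps, and the longest gap, 21.3 Mb on chromosome 1 (121337310 to 142618501), spans its centromere. A gap of 6.21 Mb on chromosome 9 (20684887 to 26892233) held 2 regions of any other kind. K562 is known to lack CDKN2A, a gene on the short arm of this chromosome; whether the gap covers it was not checked.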

How the data were processed

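Peak lists of 15 libraries from nuclease-digested K562 nuclei were analysed, 1 list per library. Per the submitters' processing notes, CASAVA 1.3, BWA and bedtools were used and the build was hg19; the peak caller and its threshold have no entry in the labels. The deposited fold column is a ratio, how far the authors' summit signal exceeds its local surroundings. Each p-value and each q-value was deposited on a −log10 scale, and the score column, deposited as a whole number, was not used for results. The labels record no normalization between libraries. Samples were grouped by title and design text, since 1 annotation field names HS2 as the gRNA target for the group without a gRNA as well.

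With k the summit pileup and λ the background, the fold is (k + 1)/(λ + 1) and p is the Poisson upper tail of k given λ; every peak had a whole k that gave back its −log10 p to within 0.01. Where a library had several peaks in a region, the one with the highest pileup was used. Members and lists were chosen with earlier results of these data known. Limma 3.58.1 (R 4.3.3) fitted 5 group means with a mean-variance trend over 37968 regions, two-sided, with Benjamini-Hochberg adjustment and a threshold of 0.05; 1 pseudocount was added to pileups. The script was tested on simulated data. Single values were tested by exact permutation of libraries with Python 3.11.15, numpy 2.4.6 and scipy 1.17.1. The sources used here give no total of reads per library; counting error was taken from the pileups themselves. The text names HS2, globin landmarks, sites past the threshold or else the 3 of lowest pooled p, the extremes in level and spread, values at the length limit and the longest gap; the chromosome 16 site, the chromosome 9 gap and the bins of high background were chosen after their values were seen. Alternatives covered scaling, filters, the length limit, merging, a block for the replicate number, and fits that omit 1 library at a time. Motifs were searched in RefSeq promoters; sequence features of the sites on hg19 were not analysed here.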

Additional observations from a re-analysis of the deposited data

Results flagged for a closer look

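A total of 22 sets of libraries were examined for a library far from the rest (the 6 guided KRAB libraries and the other 9, for each of 11 measures), and chance alone would single out about 1 in 20. Both that stood apart are given as values. At HS3, replicate 2 of dCas9 Cr10 had a level of −0.33, far below the rest of its set of 9 libraries. The median length of narrow peaks was 408 bp in replicate 3 of KRAB Cr4, far above the other 5 guided KRAB libraries; its median pileup, 103 fragments, was also the highest of the 6.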

How the results depend on the processing

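The direction and the side of the threshold of the pooled HS2 difference held under every alternative run except the 5 libraries above 0 on the first axis alone (−0.46, exact permutation p = 0.3); leaving out each library gave −0.81 to −0.60. Its size did not hold on log2 of the deposited fold, where it was −0.37. By limma, HS2 had the lowest p of all regions under 23 of 25 alternative settings in the pooled comparison, 23 of 25 in KRAB Cr10 against unguided KRAB and 20 of 25 in KRAB Cr10 against dCas9 Cr10. It did so under 3 of 25 in KRAB Cr4 against unguided KRAB and 0 of 25 in KRAB Cr4 against dCas9 Cr4. Its adjusted p in the pooled comparison ran from 7.47e-05 to 1.00.

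The count of 0 narrow sites called became 1, HS2 in each case, in KRAB Cr10 against unguided KRAB when only the libraries of the comparison were fitted. Leaving out each library gave 0 to 1 there (1 without replicate 1 of KRAB Cr4, of KRAB Cr10 or of dCas9 Cr4, or replicate 2 of dCas9 Cr10 or of unguided KRAB) and 0 to 1 in the pooled comparison (1 without replicate 1 of KRAB Cr4 or KRAB Cr10). With a term for the first axis the count was 1 in the pooled comparison and in both comparisons of KRAB Cr10, and in the 10 libraries below 0 it was 3, 1 and 1; the cause was not tested. With the replicate number as a block it was 1, HS2, in the same 3 comparisons (adjusted p = 7.47e-05 pooled, 2.94e-05 against unguided KRAB and 0.00828 against dCas9 Cr10), while the pooled HS2 difference stayed at −0.71 (exact permutation within numbers, p = 0.001). The labels tie the numbers to nothing shared, and not every same-numbered pair deviated together, so the block is no part of the design: correlations had a median of 0.130 (−0.30 to 0.65) over same-numbered pairs and of −0.109 over others. Replicate 1 of 4 groups lay together on the first axis and that of dCas9 Cr10 did not. Whether the numbers mark a shared preparation, or are out of order in some group, was not tested.

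The difference between narrow and broad sites, −5.59e-06 for KRAB Cr4 against dCas9 Cr4, was 0.00328 with a pseudocount of 5, 0.00756 with a limit of 1500 bp and 0.0054 in the libraries below 0 on the first axis. Leaving out each library moved it between −0.0404 and 0.0502. The ranges for the other comparisons were −0.0201 to 0.0843 (KRAB Cr4 against unguided KRAB), −0.079 to 0.0151 (KRAB Cr10 against unguided KRAB), −0.0526 to 0.0556 (KRAB Cr10 against dCas9 Cr10) and −0.0262 to 0.0172 (pooled). The number of narrow sites was 27878 with a limit of 750 bp, 37602 with 1500 bp and 38901 with a peak required in 14 lists. Depth bears on the smallest difference that can be seen: independent counting would give an SD of 0.178 in log2 at the median narrow site and 0.227 at HS5. These values are no firm lower limit here, since 21 of the 90 pairs of libraries between groups differed by less than such counting gives.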

Other observations

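Each of the 6 guided KRAB libraries had its closest library, by the correlation of levels over the narrow sites, among the 9 others. These 6 pairs were chosen from the data and carry no test. The HS2 level was lower in the guided KRAB library each time. For 5 of these libraries the sign was fixed beforehand, since they lay below all 9 others at HS2. The differences were −0.62, −0.35 and −0.33 in replicates 1 to 3 with Cr4 and −0.67, −1.10 and −0.75 with Cr10. In replicate 2 of KRAB Cr10, compared with replicate 3 of dCas9 Cr10 (r = 0.977), HS2 was the lowest of all 33394 narrow sites. In the other 5 pairs it was the 91st to 1466th lowest.

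On chromosome X, left out of the sites above, 824 of 2883 merged regions had a peak in all 15 lists and none of 1000 bp or more.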
